A study of Schizosaccharomyces pombe with 4 samples.

Results

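The genes for spliceosomal small nuclear RNAs (snRNAs) and small nucleolar RNAs (snoRNAs) of fission yeast, Schizosaccharomyces pombe, were examined for binding of the recombination protein Rad52. They were the reference genes of these 2 biotypes that lay on chromosomes II and III, or on the part of chromosome I where the array's positions match the reference, and that held at least 1 array probe. The reference lists 72 such genes on chromosomes I to III. Of these, 63 met the rule, out of 10322 genes of all kinds with a probe, and the other 9 lay on the far arm of chromosome I and were not analysed here. The 63 comprised 6 genes of biotype snRNA and 57 of biotype snoRNA. A gene shorter than 300 bp was extended by 250 bp on each side, since probes lay a median of 264 bp apart.

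The series holds 4 arrays of Rad52 chromatin immunoprecipitation (ChIP) hybridised with input DNA, 2 from cdc25-22 rif1Δ rad3Δ cells and 2 from cdc25-22 rif1Δ cells. All the cells carried cdc25-22, a temperature-sensitive allele that stops the cycle before mitosis. Both strains therefore lacked Rif1, which delays late replication origins, and only the first also lacked Rad3, the checkpoint kinase related to ATR. Per the labels, cells were held for 4 h at 36.5 °C, shifted to 25 °C and then given 6 mM hydroxyurea, which slows replication forks. No wild-type or untagged control was analysed here, and nothing in the labels states that replicates were separate cultures, so the p-values measure the spread between arrays, which may be technical.

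Spliceosomal snRNAs form the core of the machinery that removes introns. Box C/D snoRNAs guide methylation of ribosomal RNA and box H/ACA snoRNAs guide its pseudouridylation, while U3, U14 and snR30 (U17) act in cutting the precursor of the small-subunit RNA. Most of these genes are short and heavily transcribed units of RNA polymerase II, and U6 is transcribed by RNA polymerase III. Rad52 acts in homologous recombination at breaks and stalled forks.

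Signal of the deleted genes was low where the genotype says so. The rif1 probes had at most 3.48% of the median spot signal on every array in both channels. The rad3 probes had 6.10% and 1.23% of the median ChIP signal in rif1Δ rad3Δ, against 63.2% and 79.6% in rif1Δ. The input of the rif1Δ rad3Δ arrays is labelled cdc25-22 alone, but its rad3 signal was 1.82% and 0.972% of the median, so the data go against that label. Replicate 1 of both strains shared a slide, and rif1Δ rad3Δ replicate 2 alone was read with another extraction protocol. The spread of the log2 ratio over probes was 0.58 and 0.65 (SD) in rif1Δ rad3Δ and 0.43 and 0.44 in rif1Δ, and the ratio rose with A+T content by 0.37 and 0.32 per 10 percentage points in rif1Δ rad3Δ, against 0.02 and -0.13 in rif1Δ.

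The sequences round which the results turn were read from the ASM294v3 reference (RefSeq). The gene of snoU14, which had the highest mean level in rif1Δ rad3Δ, lies at chrII:1308634-1308745 on the plus strand. Its box C core (TGATGA, starting at base 10) and box D (CTGA, at base 105), the marks of a methylation-guide class, are in capitals, counted from 1 at its start.
snoU14 gene: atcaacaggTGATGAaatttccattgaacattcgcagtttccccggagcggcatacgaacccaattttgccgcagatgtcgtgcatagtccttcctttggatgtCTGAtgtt
The promoters, from 250 bases before to 50 after the annotated start, are shown for snoU14 and for the 3 members called as different between strains. Capitals mark TATAAA and TGTGACTG, the reverse complement of the HomolD box CAGTCACA, a promoter element known from ribosomal protein genes of this yeast. The windows are chrII:1308384-1308683 (plus strand) for snoU14, chrII:467566-467865 (minus) for the U4 gene snu4, chrI:987776-988075 (minus) for the U3 gene snu3 and chrI:3394625-3394924 (plus) for snR30. The snu3 window also holds the bases that open the other U3 gene, snu32. It may thus include transcribed sequence before the annotated start of snu3.
snoU14 promoter: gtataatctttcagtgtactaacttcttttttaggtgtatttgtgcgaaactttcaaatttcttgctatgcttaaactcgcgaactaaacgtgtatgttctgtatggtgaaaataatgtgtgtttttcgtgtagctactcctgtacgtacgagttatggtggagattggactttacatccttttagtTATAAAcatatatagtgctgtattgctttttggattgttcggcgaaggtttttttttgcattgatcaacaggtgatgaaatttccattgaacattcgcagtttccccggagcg
snu4 promoter: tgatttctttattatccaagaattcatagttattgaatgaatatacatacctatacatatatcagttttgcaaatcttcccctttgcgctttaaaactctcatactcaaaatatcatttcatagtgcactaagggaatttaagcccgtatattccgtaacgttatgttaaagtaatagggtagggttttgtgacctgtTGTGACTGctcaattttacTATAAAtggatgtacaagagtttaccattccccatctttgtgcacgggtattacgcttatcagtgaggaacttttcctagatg
snu3 promoter: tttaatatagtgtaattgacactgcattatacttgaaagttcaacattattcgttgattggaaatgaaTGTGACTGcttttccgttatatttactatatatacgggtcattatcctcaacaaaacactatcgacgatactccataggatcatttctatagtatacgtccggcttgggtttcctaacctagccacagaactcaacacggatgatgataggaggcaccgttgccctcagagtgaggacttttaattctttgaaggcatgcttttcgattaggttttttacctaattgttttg
snR30 promoter: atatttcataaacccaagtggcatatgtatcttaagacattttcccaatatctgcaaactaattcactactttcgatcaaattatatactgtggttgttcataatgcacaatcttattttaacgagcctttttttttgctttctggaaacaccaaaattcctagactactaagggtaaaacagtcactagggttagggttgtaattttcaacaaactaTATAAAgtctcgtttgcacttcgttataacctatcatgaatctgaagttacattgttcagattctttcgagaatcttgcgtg
On both strands, HomolD was found in 12 of the 63 member promoters (19%) and in 1.6% of 10725 promoters of all genes. Of the promoters of protein-coding genes, 2.65% held it. The windows of some members overlap, as for SPNCRNA.723 with snR41 and SPNCRNA.7474 with snR46, so the 12 may hold fewer separate sites. TATAAA was found in 49.2% of member promoters against 45.2% of all promoters, TGATGA in 34.9% against 20.4%, and CTGA, a short motif, in 81% against 80%. The windows hold the first 50 bases of each gene. A box C near the start of a gene, as at base 10 of snoU14, therefore counts as a TGATGA match. The TGATGA share is thus partly that of the genes themselves and cannot be read as a promoter trait. Of the 47 genes that stand alone, the 10 with HomolD had a median level of 0.30 in rif1Δ rad3Δ and 0.44 in rif1Δ, and the 37 without it had 0.46 in rif1Δ rad3Δ and 0.51 in rif1Δ. A motif match is a description of these windows and not a site shown to be bound.

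Rad52 signal over snRNA and snoRNA genes lay above the genome's middle in both strains. A level here is the mean log2 ratio of ChIP over input for a gene's probes, with each array's median over chromosomes I to III set to 0. The median member level was 0.30 and 0.42 in rif1Δ rad3Δ, against 0.44 and 0.52 in rif1Δ. Over all 10322 genes the median of the strain means was 0.03 in rif1Δ rad3Δ and -0.02 in rif1Δ. Of the 63 members, 37 (58.7%) were above 0 on all 4 arrays, as were 20.8% of all genes, and no member was below 0 on all 4. The share above 0 on all 4 was 64.5% for tRNA genes, 81.25% for 5S ribosomal RNA genes and 27.2% for all genes under 300 bp. Members were above 0 on both arrays in 40 cases in rif1Δ rad3Δ and in 51 cases in rif1Δ.

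Calls used limma's moderated test of each strain's mean against 0, with Benjamini-Hochberg adjustment over all genes at 0.05. In rif1Δ rad3Δ, 30 members (47.6%) were called above the array median, beside 24.9% of all genes, and 2 were called below it, beside 21.5%. In rif1Δ, 17 members (27.0%) were called above, beside 2.76% of all genes, and 0 below (0 also at an unadjusted limma p of 0.05), beside 0.368%. The share of members called was thus nearer to the background in rif1Δ rad3Δ, whose levels over all genes were spread more widely. Both strains called 11 of them, 19 were called above only in rif1Δ rad3Δ, 6 only in rif1Δ, and 25 in neither strain in either direction, but passing in one strain and not in the other is no test of a difference. Removing each array's A+T trend left 18 calls in rif1Δ rad3Δ, beside 23.3% of all genes, and 24 in rif1Δ, beside 4.14%. The share of members in rif1Δ rad3Δ was then close to that of all genes, and the members were richer in A+T (median 68.1%, range 56.4% to 73.6%) than all genes (63.5%). With a strain cut to 1 array the calls fell. In rif1Δ rad3Δ, 24 members were called above without its replicate 1 (beside 15.9% of all genes) and 15 without its replicate 2 (beside 16.5%). In rif1Δ, 1 member was called without replicate 1 (beside 0.281%) and 1 without replicate 2 (beside 0.62%).

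**Figure D1:**
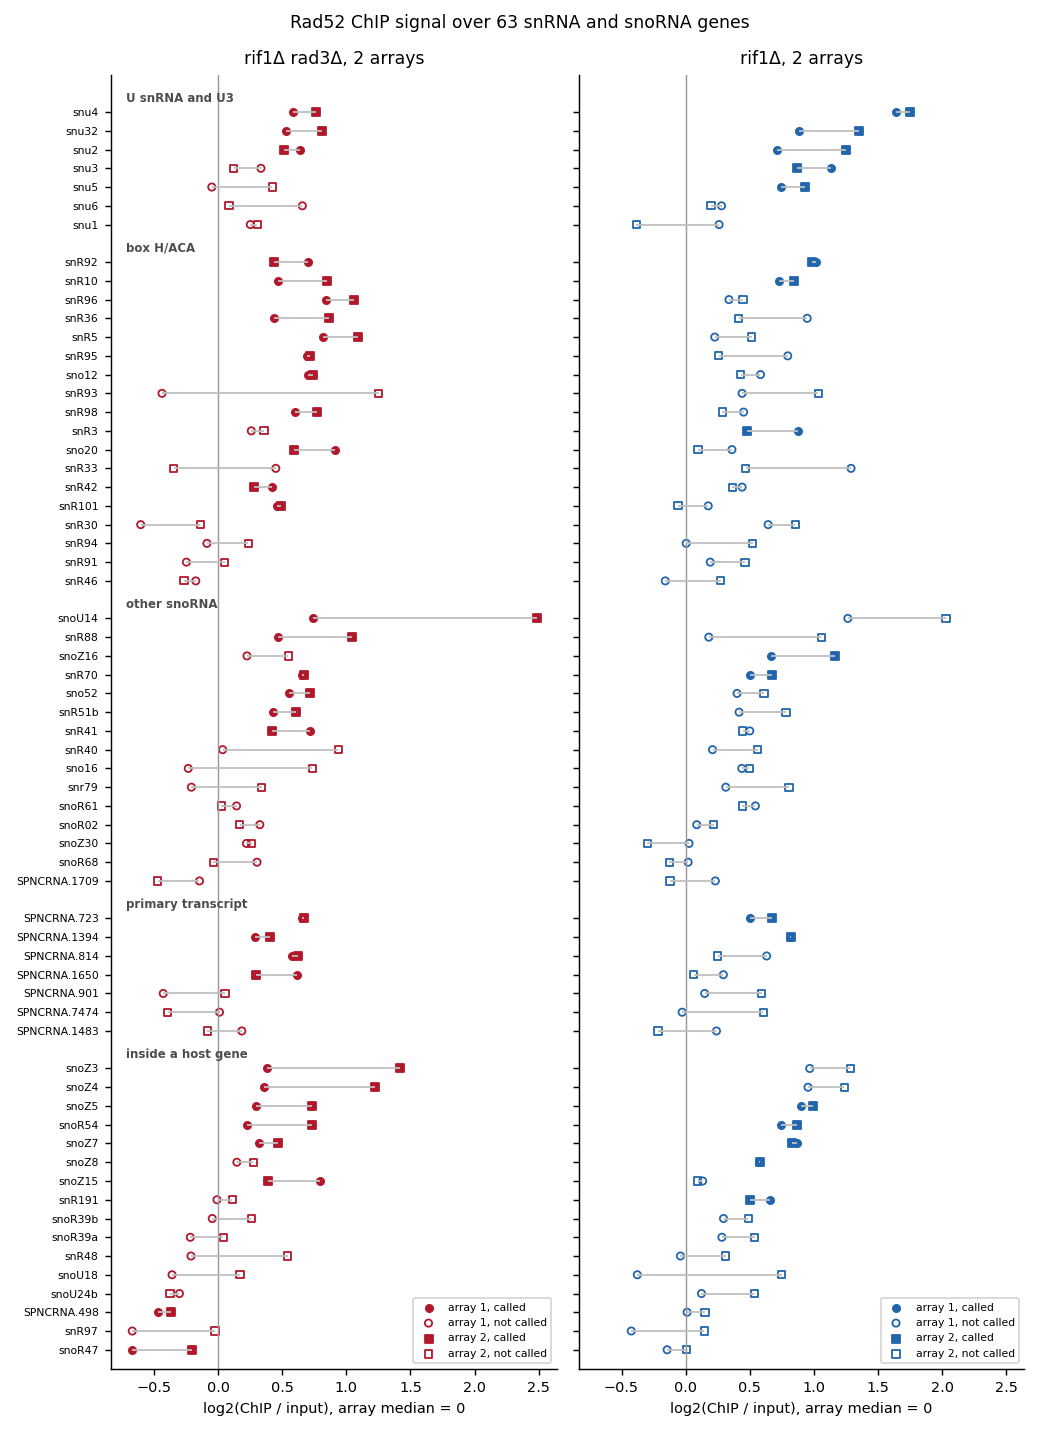
Level of each of the 63 members on each array (log2 of ChIP over input, array median at 0), with rif1Δ rad3Δ in the left panel and rif1Δ in the right. Circles are replicate 1, squares replicate 2, a grey line joins them, and filled symbols are members called above or below 0 by limma. The snRNA genes snu4, snu2 and snu5 and both U3 genes lie to the right in rif1Δ, and snoU14 has the widest gap between the rif1Δ rad3Δ arrays.

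Genes are not independent points here. Of the 63 members, 21 share a probe with another member, and 11 rest on 1 probe, 32 on 2, 19 on 3 and 1 on 5. Only 41 have a probe midpoint within the gene itself, and the other 22 are read from their flanks. ChIP signal has no strand, so a member cannot be told apart from a neighbour within the spacing of the probes. A probe of 10 members was not well above background on some array, though no member was dim on all arrays of a strain and none held a saturated probe.

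Other short or heavily transcribed genes were the most like comparison. The 121 tRNA genes had a median level of 0.32 in rif1Δ rad3Δ and 0.54 in rif1Δ. Calls above the array median covered 44.6% of them in rif1Δ rad3Δ and 27.3% in rif1Δ. For the 32 genes of 5S ribosomal RNA the medians were 0.61 in rif1Δ rad3Δ and 0.64 in rif1Δ, with 56.3% called above in rif1Δ rad3Δ and 40.6% in rif1Δ. All 1352 genes under 300 bp had medians of 0.12 in rif1Δ rad3Δ and 0.04 in rif1Δ, and 31.3% of them were called above in rif1Δ rad3Δ and 6.21% in rif1Δ. The 4275 protein-coding genes had medians of -0.01 in rif1Δ rad3Δ and -0.02 in rif1Δ. The members' shares were thus close to those of tRNA genes and above those of short genes in general; these differences between lists were not tested. Of the 63 members, 58 had no tRNA or 5S gene within 2 kb, and their medians of 0.36 in rif1Δ rad3Δ and 0.48 in rif1Δ were near those of all members.

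**Figure D2:**
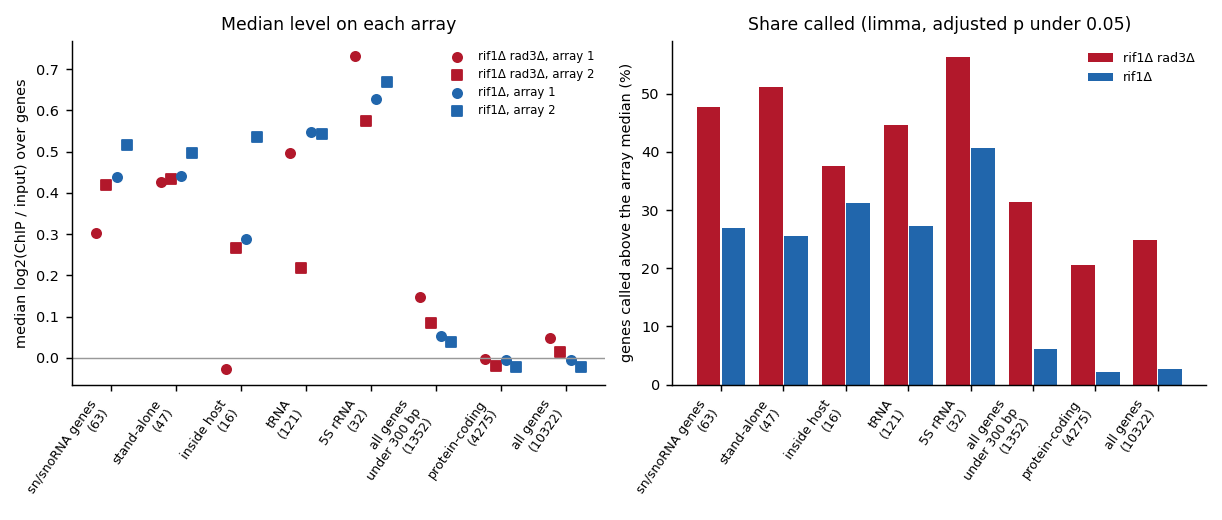
Left, the median level (log2 of ChIP over input) of each gene list on each array, with rif1Δ rad3Δ in red and rif1Δ in blue. Right, the percentage of each list called above the array median by limma. Members stand near tRNA genes, and all genes and protein-coding genes lie near 0 with 24.9% and 20.6% called in rif1Δ rad3Δ.

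Part of the signal was local to the genes. Each member's level was set against the probes that lay from 500 to 2500 bp outside its interval. The median excess was 0.15 and 0.36 in rif1Δ rad3Δ and 0.34 and 0.42 in rif1Δ. The excess was above 0 on all 4 arrays for 32 of 63 members (50.8%), and for 15.9% of all genes. It was so for 53.0% of tRNA genes, 68.75% of 5S genes and 22.5% of all genes under 300 bp. Averaged in steps of 250 bp along the direction of transcription, probes of stand-alone members had 0.30 and 0.28 in rif1Δ rad3Δ at 250 bp before the gene centre, against 0.28 and 0.18 in rif1Δ. At the centre they had 0.37 on both arrays of rif1Δ rad3Δ and 0.51 and 0.47 in rif1Δ. At 250 bp after the centre the means were 0.28 and 0.81 in rif1Δ rad3Δ and 0.58 and 0.88 in rif1Δ, the highest step within 1 kb of the centre on 3 of the 4 arrays. At 500 bp after the centre they were 0.20 and 0.73 in rif1Δ rad3Δ and 0.33 and 0.52 in rif1Δ, against 0.04, -0.01, 0.01 and 0.01 on the same arrays at 500 bp before it. Around tRNA genes the highest step in rif1Δ rad3Δ was that at -500 bp, with 0.63 and 0.39, and in rif1Δ that at the centre, with 0.96 and 0.66.

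**Figure D3:**
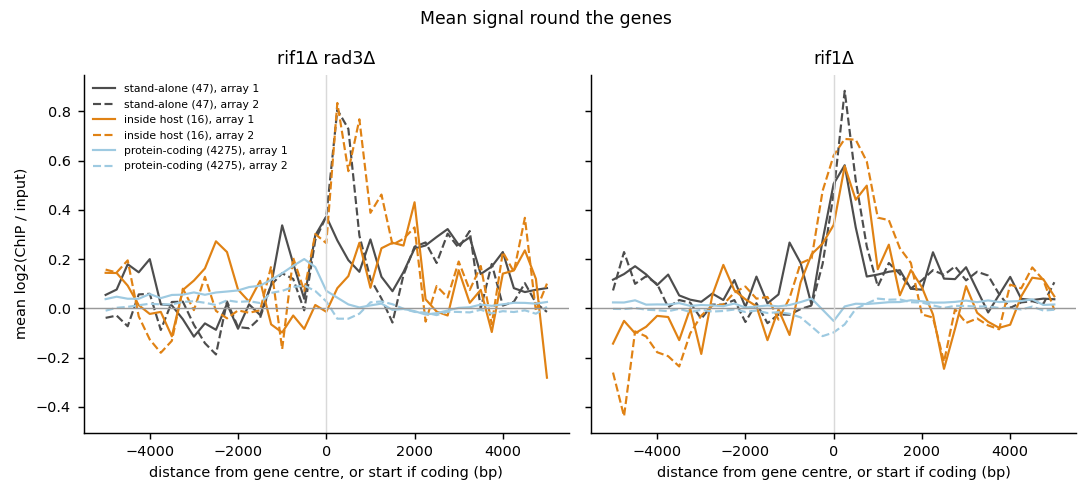
Mean log2 ratio of ChIP over input in 250-bp steps round stand-alone members (47) and members inside host genes (16), measured from the gene centre, and round protein-coding genes (4275), measured from the gene start, with rif1Δ rad3Δ left and rif1Δ right. Solid lines are replicate 1 and dashed lines replicate 2. Stand-alone members peak at or just after the centre, with 0.81 on rif1Δ rad3Δ replicate 2 and 0.88 on rif1Δ replicate 2 at 250 bp. On rif1Δ rad3Δ replicate 1 the centre had 0.37, little above the 0.34 at -1000 bp.

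Among the 5 spliceosomal snRNA genes, the U4, U2 and U5 genes had the higher levels in rif1Δ and the U6 and U1 genes the lower ones. The median of the 5 was 0.37 in rif1Δ rad3Δ and 0.84 in rif1Δ. In rif1Δ rad3Δ 2 were called above, beside 24.9% of all genes, and in rif1Δ 3, beside 2.76%. The excess over the flanks was above 0 on all 4 arrays for 1 of the 5, beside 15.9% of all genes. The U4 gene snu4, whose RNA pairs with U6 in the tri-snRNP, had levels of 0.59 and 0.76 in rif1Δ rad3Δ, against 1.64 and 1.75 in rif1Δ. The arrays of the strains did not overlap, with rif1Δ rad3Δ lower, as for 31.8% of all genes. Mean ChIP over input was 1.60-fold the array median in rif1Δ rad3Δ and 3.24-fold in rif1Δ. The level passed limma's test in both strains (adjusted p = 0.00465 in rif1Δ rad3Δ and 0.00200 in rif1Δ).

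The U2 gene snu2, whose RNA pairs with the branch point, had levels of 0.63 and 0.51 in rif1Δ rad3Δ, against 0.71 and 1.25 in rif1Δ, and was called above in both strains (limma adjusted p = 0.0219 in rif1Δ rad3Δ and 0.0317 in rif1Δ). Its arrays did not overlap, with rif1Δ rad3Δ lower, as for 31.8% of all genes. The difference of -0.41 ± 0.21 (SE) did not pass (limma adjusted p = 0.206). These levels average 2 probes that moved in opposite directions between the rif1Δ rad3Δ replicates. There the probe at 138 bp from the centre had 0.154 and 1.197, and that at -51 bp had 1.116 and -0.173. Of the 2 probes, 1 was not well above background in either channel on the replicate 1 arrays of both strains. With well-measured probes only, the call in rif1Δ rad3Δ was lost and that in rif1Δ was kept. The U5 gene snu5, whose RNA aligns exons, had -0.05 and 0.42 in rif1Δ rad3Δ, against 0.75 and 0.93 in rif1Δ, where alone it was called (adjusted p = 0.0380). Its arrays did not overlap either, and its difference of -0.65 ± 0.19 did not pass (limma adjusted p = 0.0733). The U6 gene snu6, whose RNA forms part of the catalytic centre, had 0.66 and 0.08 in rif1Δ rad3Δ, against 0.28 and 0.20 in rif1Δ. The U1 gene snu1, whose RNA pairs with the start of introns, had 0.25 and 0.31 in rif1Δ rad3Δ, against 0.26 and -0.38 in rif1Δ. The arrays of the strains overlapped for both of these genes, and neither was called in any comparison.

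The 2 U3 genes both lay above the array median in rif1Δ. The first, snu3, at chrI:987570-987825, had levels of 0.33 and 0.12 in rif1Δ rad3Δ, against 1.13 and 0.87 in rif1Δ. It was called in rif1Δ (limma adjusted p = 0.0163) and not in rif1Δ rad3Δ (adjusted p = 0.146). The second, snu32 (U3B), had 0.53 and 0.81 in rif1Δ rad3Δ, against 0.88 and 1.35 in rif1Δ, and was called in both strains (adjusted p = 0.0128 in rif1Δ rad3Δ and 0.0218 in rif1Δ). The arrays did not overlap for either gene, with rif1Δ rad3Δ lower, as for 31.8% of all genes. The difference for snu32, -0.45 ± 0.20 (SE), did not pass (limma adjusted p = 0.170).

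The 19 genes taken as box H/ACA were those whose annotated product names the class, and snR30, so the list may miss others. Of the 19, 11 (57.9%) were called above in rif1Δ rad3Δ, beside 24.9% of all genes. In rif1Δ 3 (15.8%) were called above, beside 2.76%. Their median levels were 0.48 in rif1Δ rad3Δ and 0.40 in rif1Δ. Of the 19, 6 were among the 10 highest members in rif1Δ rad3Δ. The gene snR5 had 0.82 and 1.09 in rif1Δ rad3Δ, against 0.23 and 0.52 in rif1Δ. The gene snR96, which lay 1758 bp from a tRNA gene, had 0.84 and 1.06 in rif1Δ rad3Δ, against 0.34 and 0.45 in rif1Δ. The gene sno20 had 0.91 and 0.59 in rif1Δ rad3Δ, against 0.36 and 0.10 in rif1Δ. In each of these the rif1Δ rad3Δ arrays were the higher without overlap, as for 33.4% of all genes. Picking them among the highest in rif1Δ rad3Δ makes this more likely. In none did the difference pass (0.58 ± 0.17, 0.56 ± 0.15 and 0.52 ± 0.18, limma adjusted p = 0.0714, 0.0572 and 0.0953). The genes sno12, snR95 and snR98 completed the H/ACA genes in that top 10, with mean levels of 0.72, 0.71 and 0.68 in rif1Δ rad3Δ and of 0.51, 0.53 and 0.37 in rif1Δ. In rif1Δ the highest H/ACA gene was snR92, with 0.70 and 0.43 in rif1Δ rad3Δ and 1.02 and 0.99 in rif1Δ, called in both strains.

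The gene of U14, a box C/D RNA needed for processing of the small-subunit RNA, had the highest mean level in rif1Δ rad3Δ and the second highest in rif1Δ. Its levels were 0.74 and 2.48 in rif1Δ rad3Δ, against 1.26 and 2.03 in rif1Δ. Replicate 2 exceeded replicate 1 in both strains, the strains overlapped, and the difference was -0.04 ± 0.56 (SE). The level was called in rif1Δ rad3Δ (limma adjusted p = 0.0201) and not in rif1Δ (adjusted p = 0.0852), and without rif1Δ rad3Δ replicate 2 it was not called in rif1Δ rad3Δ either (adjusted p = 0.0636). Its 2 probes lay at -189 and 287 bp from the gene centre, counted along transcription, so none was inside the gene shown above. By strain mean the second was the highest within 2 kb in both strains, with 0.94 and 2.68 in rif1Δ rad3Δ and 1.34 and 2.19 in rif1Δ. On rif1Δ rad3Δ replicate 1 alone, the probes at -1513 and -1780 bp were higher, with 1.35 and 1.04. No annotated gene covers the probe at 287 bp. Another snoRNA gene in the top 10 of rif1Δ rad3Δ, snR88, had 0.47 and 1.04 in rif1Δ rad3Δ, against 0.18 and 1.06 in rif1Δ. Its excess over the flanks was -0.02 and 0.53 in rif1Δ rad3Δ, against -0.04 and 1.10 in rif1Δ. A tRNA gene lay 1788 bp from snR88. In rif1Δ the top 10 also held snoZ16, with 0.23 and 0.55 in rif1Δ rad3Δ, against 0.66 and 1.17 in rif1Δ. Its arrays did not overlap, with rif1Δ rad3Δ lower, as for 31.8% of all genes. The 10 highest members of the strains shared 3 genes, namely snoU14, snoZ3 and snoZ4.

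Clusters shared their signal, as their probes do. The longest run, snoZ8, snoZ7, snoZ5, snoZ4 and snoZ3, lies in 1 non-coding transcript, snoZ, within chrI:526726-527713. Its 5 members had a median of 0.51 in rif1Δ rad3Δ and 0.95 in rif1Δ. The values climbed along the transcript, with snoZ8 at 0.15 and 0.27 in rif1Δ rad3Δ and 0.57 and 0.58 in rif1Δ, and snoZ3, at the other end, at 0.38 and 1.42 in rif1Δ rad3Δ and 0.97 and 1.28 in rif1Δ. By strain mean, the highest probe within 2 kb lay 274 bp past the centre of snoZ3 in both strains. There the annotation places both the snoZ transcript and psf3, the gene of a subunit of the GINS replication complex. On rif1Δ rad3Δ replicate 1 that probe had 0.43 and the probe at 1425 bp had 0.82. The level of psf3 was 0.33 and 0.95 in rif1Δ rad3Δ, against 0.49 and 0.64 in rif1Δ. A second run, snR41, snR70 and snR51b, lies in the primary transcript SPNCRNA.723 on chromosome I, and its members had means from 0.52 to 0.66 in rif1Δ rad3Δ and from 0.47 to 0.60 in rif1Δ. Each of the other 6 primary transcripts overlaps 1 snoRNA gene of the list, so the 7 primary transcripts add few values of their own. Their medians were 0.35 in rif1Δ rad3Δ and 0.37 in rif1Δ.

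Stand-alone genes were separated from those inside host genes, meaning wholly inside another gene on the same strand that is no snRNA or snoRNA gene. The 47 stand-alone members had a median level of 0.41 in rif1Δ rad3Δ and 0.49 in rif1Δ. The 16 members inside hosts had 0.14 in rif1Δ rad3Δ and 0.40 in rif1Δ. The stand-alone set was thus higher by 0.27 in rif1Δ rad3Δ and by 0.09 in rif1Δ, against a spread between replicate arrays (SD, n = 2) of 0.20 in rif1Δ rad3Δ and 0.14 in rif1Δ, and the value in rif1Δ changed sign when short genes were not extended (-0.27) or when 2 probes were required (-0.11), and without rif1Δ replicate 1 (-0.04). Of the stand-alone members 24 (51.1%) were called above in rif1Δ rad3Δ and 12 (25.5%) in rif1Δ, and of those inside hosts 6 were called above and 2 below in rif1Δ rad3Δ and 5 above in rif1Δ. These shares stand beside 24.9% above and 21.5% below of all genes in rif1Δ rad3Δ and 2.76% above in rif1Δ. The set inside hosts was mixed. The 5 members of the snoZ transcript had the medians of 0.51 in rif1Δ rad3Δ and 0.95 in rif1Δ given above, while the 10 inside protein-coding genes had medians of -0.02 in rif1Δ rad3Δ and 0.26 in rif1Δ. Their coding hosts themselves had medians of -0.06 in rif1Δ rad3Δ and 0.35 in rif1Δ, and the intervals of members and hosts share probes.

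Of the 5 lowest members in rif1Δ rad3Δ, 3 lay inside coding hosts, and the others were snR97 and snR30. The lowest in rif1Δ rad3Δ was snoR47, inside fta3 (a kinetochore protein gene), with -0.68 and -0.21 in rif1Δ rad3Δ, against -0.14 and 0.01 in rif1Δ. The candidate snoRNA SPNCRNA.498, inside ipa1, had -0.47 and -0.37 in rif1Δ rad3Δ, against 0.01 and 0.15 in rif1Δ. These 2 were the members called below the array median in rif1Δ rad3Δ (limma adjusted p = 0.0396 and 0.0165). The gene snR97, inside the non-coding SPNCRNA.617, had -0.67 and -0.02 in rif1Δ rad3Δ, against -0.42 and 0.15 in rif1Δ, where it was the lowest member. After snR97 the lowest in rif1Δ were snoZ30, snoR47, snu1 and snoR68, with means of 0.24, -0.44, 0.28 and 0.13 in rif1Δ rad3Δ, against -0.14, -0.07, -0.06 and -0.05 in rif1Δ.

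Between the strains, Rad52 signal was lower in rif1Δ rad3Δ over 3 members, snR30, snu4 and snu3, beside 3.76% of all genes called lower. No member was called higher, beside 7.35% of all genes, and the 3 calls of 63 in either direction stand beside 11.1%. The members' share was thus below the background in all. With the replicate number as a block, which pairs the arrays of the shared slide, 20 members were called, 16 lower and 4 higher, beside 28.2% of all genes. Without adjustment, 21 members had p below 0.05, of which 16 were lower and 5 higher. The difference, rif1Δ rad3Δ minus rif1Δ, was negative for 40 members and positive for 23. Its median was -0.23 for the members, beside 0.01 for all genes. The members' median was -0.05 without rif1Δ rad3Δ replicate 1 and -0.09 without rif1Δ replicate 2, so its size depended on single arrays. The arrays of the strains did not overlap for 26 members that were lower in rif1Δ rad3Δ, beside 31.8% of all genes, and for 9 that were higher, beside 33.4%. On the slide that held 1 array of each strain the median difference was -0.26, and between the other 2 arrays, on separate slides, -0.12.

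**Figure D4:**
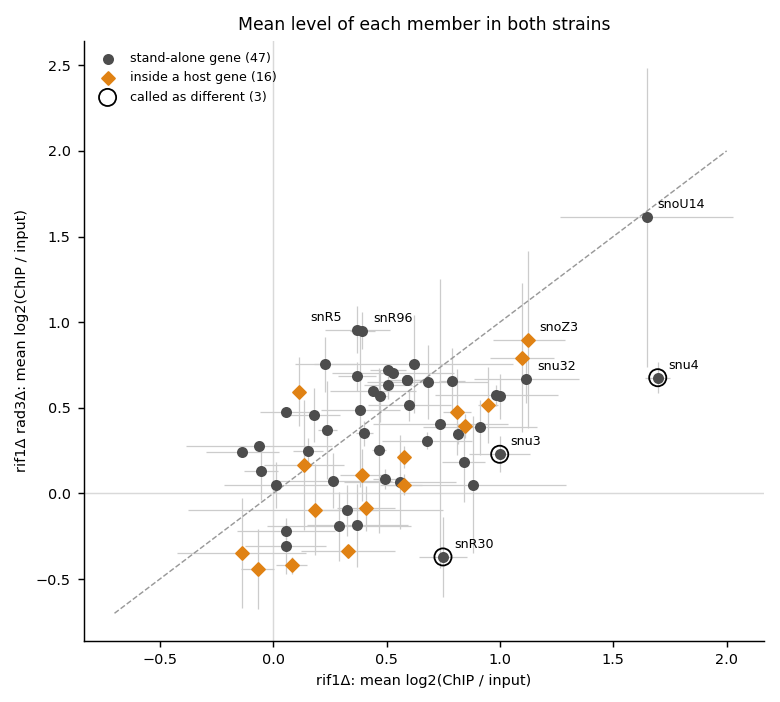
Mean level of each member in rif1Δ rad3Δ (vertical axis) against rif1Δ (horizontal axis), both log2 of ChIP over input, with grey lines spanning the 2 arrays of a strain and a dashed line of equal level. Circles are stand-alone genes and diamonds genes inside hosts, and rings mark the 3 called differences (snR30, snu4 and snu3), all below the line.

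The largest difference was that of snR30 (U17), an H/ACA RNA used in processing of the small-subunit RNA. Its levels were -0.60 and -0.14 in rif1Δ rad3Δ, against 0.64 and 0.85 in rif1Δ. All values were below 0 in one strain and above 0 in the other, and the difference was -1.12 ± 0.20 (SE; limma adjusted p = 0.0312). It rests on 1 probe, inside the gene. On the shared slide the difference was -1.25, and between the other arrays -0.99. The next probe, 295 bp past the centre and over pdi4, had 0.19 and 0.52 in rif1Δ rad3Δ, against 0.94 and 1.35 in rif1Δ, again without overlap. At other neighbouring probes the strains did overlap. The probe at -262 bp had -0.35 and 0.33 in rif1Δ rad3Δ, against -0.04 and 0.24 in rif1Δ. That at 621 bp had -0.25 and 1.13 in rif1Δ rad3Δ, against 0.01 and 0.72 in rif1Δ.

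For snu4 the difference was -1.02 ± 0.14 (SE; limma adjusted p = 0.0256), with -1.06 on the shared slide and -0.99 between the other arrays. Relative to each array's median, the ChIP channel over snu4 stood at 0.28 and 0.21 (log2) in rif1Δ rad3Δ, against 1.37 and 1.59 in rif1Δ, and the input channel at -0.30 and -0.54 in rif1Δ rad3Δ, against -0.26 and -0.12 in rif1Δ. The strains were thus farther apart in the ChIP channel than in the input. The signal was not centred on snu4 and climbed past its end into met17, the gene of homocysteine synthase. There the highest probe within 2 kb of snu4 in rif1Δ rad3Δ, 1758 bp past its centre, averaged 1.49, and that in rif1Δ, at 987 bp, averaged 2.16. The level of met17 itself was 1.50 and 1.0 in rif1Δ rad3Δ, against 1.84 and 1.68 in rif1Δ, called above in both strains (limma adjusted p = 0.00275 in rif1Δ rad3Δ and 0.00479 in rif1Δ), with a difference of -0.51 ± 0.20 that did not pass (adjusted p = 0.127). The part of this neighbouring signal in the level of snu4 was not tested. A 5S gene lay 2844 bp and a tRNA gene for histidine 3180 bp away.

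For snu3 the difference was -0.77 ± 0.16 (SE; limma adjusted p = 0.0399), with -0.80 on the shared slide and -0.74 between the other arrays. It passed in 6 of 13 alternative settings, with values from -1.0 to -0.51, and lost its call without rif1Δ rad3Δ replicate 2 and without either rif1Δ replicate. Its highest probe within 2 kb lay inside the gene in both strains, at -118 bp from the centre, with 1.08 and 0.44 in rif1Δ rad3Δ and 1.44 and 0.89 in rif1Δ. The probe at 68 bp past the centre had -0.20 and 0.31 in rif1Δ rad3Δ, against 1.30 and 0.99 in rif1Δ. Both channels over snu3 were dim, with input at -2.10 and -1.74 (log2, relative to the array median) in rif1Δ rad3Δ and -2.10 and -1.83 in rif1Δ. One of its 3 probes was not well above background in the input of both replicate 1 arrays. Without either rif1Δ replicate, none of the 3 differences passed (limma, lowest adjusted p of any member 0.0848 without replicate 1 and 0.0961 without replicate 2), and no gene of the 10322 did, although 22 and 8 members had unadjusted p below 0.05.

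**Figure D5:**
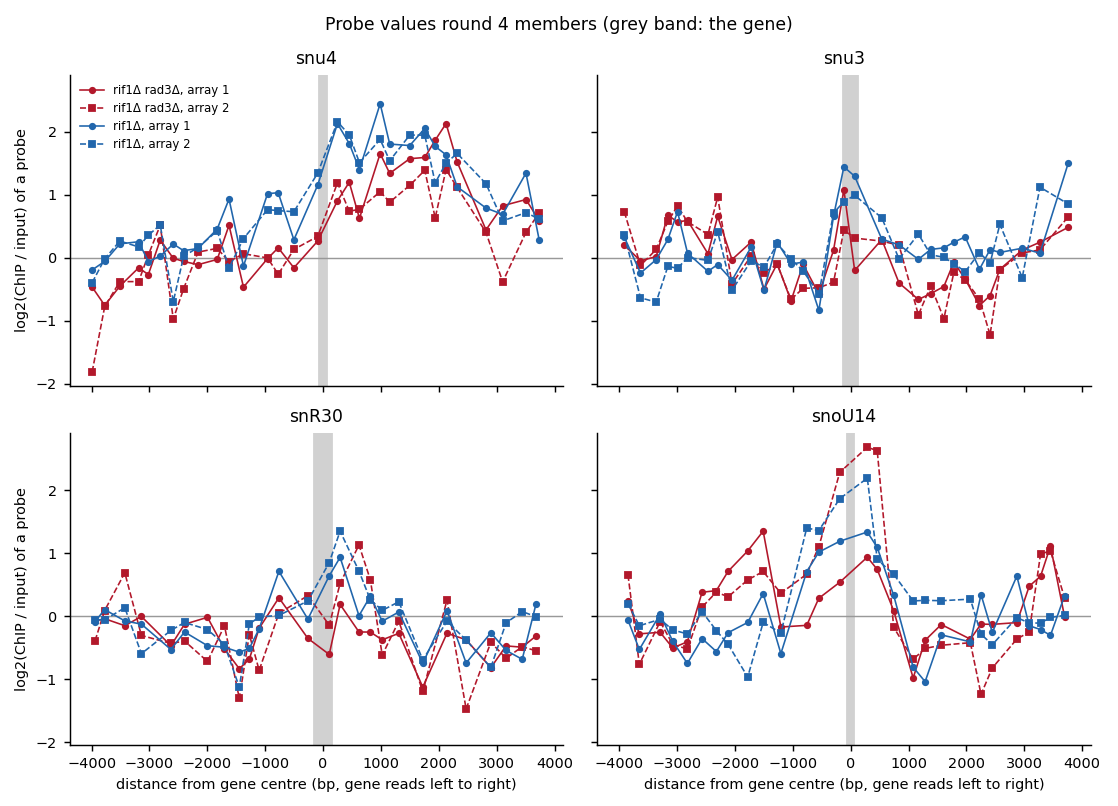
Probe values (log2 of ChIP over input) round snu4, snu3, snR30 and snoU14 by distance from the gene centre, with rif1Δ rad3Δ in red and rif1Δ in blue, circles and solid lines for replicate 1, squares and dashed lines for replicate 2, and the gene as a grey band. Signal at snu4 continues past the gene for more than 2000 bp, while at snu3 the highest probe within 2 kb lies inside the gene. Farther out, the probe at 3758 bp from snu3 had 1.50 and 0.85 in rif1Δ. That at -2299 bp had 0.66 and 0.97 in rif1Δ rad3Δ.

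The other large differences did not pass. The gene snR33 had 0.45 and -0.35 in rif1Δ rad3Δ, against 1.29 and 0.47 in rif1Δ, from 1 probe that was not well above background in 1 input. The gene snoU24b, inside cpc2 (the RACK1 gene), had -0.30 and -0.37 in rif1Δ rad3Δ, against 0.12 and 0.54 in rif1Δ. A tRNA gene lay 1545 bp from it. The primary transcript SPNCRNA.901 had -0.43 and 0.05 in rif1Δ rad3Δ, against 0.15 and 0.59 in rif1Δ. Together with snu5, snR5, snR96 and snoZ16 these complete the 10 members with the largest differences. In all 10 the arrays of the strains did not overlap, which picking them by the size of the difference makes likely. By class, 14 of the 16 members inside hosts and 26 of the 47 stand-alone members had a negative difference, with medians of -0.35 inside hosts and -0.05 for stand-alone genes. Of the stand-alone genes 16 were lower in rif1Δ rad3Δ without overlap and 8 higher, and of those inside hosts 10 were lower and 1 higher, beside 31.8% lower and 33.4% higher of all genes. The class difference was not tested. For tRNA genes the median difference was -0.24, with 2 called higher and 5 lower, and for 5S genes it was -0.05.

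Across the 63 members, levels in rif1Δ rad3Δ and rif1Δ were related (Pearson r = 0.532, Spearman rho = 0.471), which is a description, since members share probes and 1 slide held an array of each strain. A+T content had r = 0.149 with the level in rif1Δ rad3Δ and -0.0968 with that in rif1Δ. Mean input brightness had r = -0.136 with the level in rif1Δ rad3Δ and -0.382 with that in rif1Δ, where a negative value is partly built in, since input is the denominator of the ratio. The input channel's median over members was -0.30 and 0.05 in rif1Δ rad3Δ and -0.25 and 0.07 in rif1Δ, and the ChIP channel's was -0.09 and 0.46 in rif1Δ rad3Δ and 0.22 and 0.58 in rif1Δ. The part of input brightness in the levels was not tested.

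Genes that encode the proteins of these particles did not share the high levels of the RNA genes. The list held 43 genes for box C/D, box H/ACA, Sm, LSm and snRNP proteins and for enzymes of RNA ends, of which 36 were tested, 6 were not placed or had no probe and gem2 was not matched by name. Their median level was -0.14 in rif1Δ rad3Δ and -0.02 in rif1Δ, with 5 (13.9%) called above and 12 (33.3%) below in rif1Δ rad3Δ, beside 24.9% above and 21.5% below of all genes. In rif1Δ limma called 0 in either direction, with 2 above at an unadjusted p of 0.05. Between strains 4 (11.1%) were lower in rif1Δ rad3Δ and 1 (2.78%) higher, beside 3.76% lower and 7.35% higher of all genes. The exonuclease gene dhp1 had -1.03 and -1.17 in rif1Δ rad3Δ, against 0.04 and -0.03 in rif1Δ, and the Sm gene smb1, whose centre lies 10974 bp from that of dhp1, had -1.11 and -1.49 in rif1Δ rad3Δ, against -0.18 and -0.24 in rif1Δ (limma adjusted p = 0.0250 for dhp1 and 0.0285 for smb1). The LSm gene lsm3 differed by -0.79 ± 0.16 (SE) and the helicase gene brr2 by -0.66 ± 0.13, while lsm5 was higher by 0.66 ± 0.15 (limma adjusted p = 0.0373, 0.0373 and 0.0463). In each of the 5 the arrays of the strains did not overlap, which adds no support, since they were picked as called.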

How the data were processed

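Per the labels, the IP fraction was in Cy3 and the input in Cy5 on all 4 arrays (2-colour Agilent). The labels' molecule and extraction fields speak of RNA, and the fractions were taken as ChIP and input DNA from the series title and fraction labels. The deposited intensity values were read from scanner files of Agilent Feature Extraction 10.7.3.1 (per the submitters' processing notes), whose processed signals are background-subtracted and dye-normalized per the file headers. The deposited log10 ratio runs as Cy5 over Cy3 per the file headers and gave only a check of direction. In the deposited value table each number was a plain ratio, the Cy3 processed signal divided by that of Cy5, with column medians of 0.968 and 1.01 for rif1Δ rad3Δ and 0.985 and 1.01 for rif1Δ, and was not needed further. Deposited quality flags, a yes or no per spot and channel, served as filters.

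The log2 of ChIP over input was centred per array on the median of 42548 probes, after 93 outlier probes were left out, and averaged over the probes of a gene. No mean spot signal was used, so the normexp alternative (offset 50) started from median signals. Probes well above background made up 96.2% to 99.8% in each channel, and the number of arrays limits the precision. The 10322 genes were tested by lmFit and eBayes of limma 3.58.1 (R 4.3.3) on all arrays, with 2 residual and 4.05 prior degrees of freedom, on the probe means per gene. On simulated arrays of all 10322 genes with normal noise of 1 size, changes of 0.5 (log2) between strains were recovered in 53.5% of genes and changes of 1 in 100%, with 6.14% and 4.76% of calls false; the spread of real arrays varies between genes. Replicate numbers were used as a block only where stated, since nothing says that they pair cultures.

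The headers name an NCBI build of Feb2002 and the reference was ASM294v3. Probe brightness followed the base content of the reference at an offset of 0 bp (r from 0.261 to 0.272) on the part used, and not on the far arm of chromosome I, which was left out. The members and lists were chosen with earlier results of these data known. Genes named in the text were the U1, U2, U4, U5, U6 and U3 genes, the 10 highest in each strain, the 10 largest differences, the 5 lowest in each strain, and the protein genes called as different. Neighbours were named after their values were seen. Alternatives were normexp, loess, centring on the mode, equal spread, A+T trend removal, well-measured probes only, no extension of short genes, at least 2 probes, the replicate block, other definitions of a host and leaving out each array.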

Additional observations from a re-analysis of the deposited data

Results flagged for a closer look

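A total of 3 members showed a difference between the strains that passed limma's test over all genes. The difference, rif1Δ rad3Δ minus rif1Δ, was -1.12 for snR30, -1.02 for snu4 and -0.77 for snu3 on the log2 scale. In each the 2 rif1Δ rad3Δ arrays lay below both rif1Δ arrays, which picking them as called makes likely. Of all 10322 genes, 3.76% were called lower by limma.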

How the results depend on the processing

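Each alternative was run over all genes. Calls above the array median in rif1Δ rad3Δ, 30 in all, (beside 24.9%) became 18 with the A+T trend removed (23.3%) and 19 of 41 genes without extension of short genes (23.8%), and ranged from 15 to 30 with 1 array left out. In rif1Δ, 17 calls (beside 2.76% of all genes) became 26 with normexp (4.76%), 27 with loess (4.86%), 29 with equal spread (6.40%), 5 of 41 without extension (1.31%) and 39 with the replicate block (8.38%), and 1 to 30 with 1 array left out. The 3 differences (beside 11.1% of all genes) became 7 with loess (16.5%), 1 with equal spread (0.145%), 8 without the A+T trend (8.39%), 6 with well-measured probes only (16.7%), 5 with at least 2 probes (17.3%) and 20 with the replicate block (28.2%), and 0 to 4 with 1 array left out. With equal spread the calls over all genes fell to 15, and centring on the mode gave 515 and the replicate block 2914, against 1147. Their split also moved, with 3 higher and 12 lower under equal spread against 759 higher and 388 lower without that scaling. Of the replicate numbers, only number 1 stands for a shared slide, and deviations of same-numbered arrays had r = 0.316 over genes. The snu4 difference lost its call only without a rif1Δ replicate, among 12 alternatives, snR30 also with equal spread, and snu3 in 7 of 13. The 5 protein-gene differences became 1 with normexp, 2 with the mode, 0 with equal spread (12 at an unadjusted limma p of 0.05), 14 with the replicate block, and 0 to 3 with 1 array left out (0 without rif1Δ replicate 1 or 2, with 13 and 7 unadjusted). The median member difference of -0.23 was -0.32 with equal spread, -0.37 without the A+T trend, -0.12 between the replicate 2 arrays (chosen after the data were seen) and -0.37 to -0.052 with 1 array left out. The lead of stand-alone over host-gene members kept its sign in rif1Δ rad3Δ under all alternatives run. In rif1Δ it was 0.09, and -0.27 without extension, -0.11 with at least 2 probes, 0.25 with protein-coding hosts only and -0.04 to 0.15 with 1 array left out. Fewer genes are tested without extension or with 2 probes, and the cause of the other changes was not tested.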
